A study of Homo sapiens with 30 samples.

Results

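The inhibitory SMADs and feedback regulators of bone morphogenetic protein (BMP) signaling were taken as 5 genes, SMAD6, SMAD7, BAMBI, SMURF1 and SMURF2. They were found on the array by gene name, which gave 7 of the 41000 probes, with 1 probe each for SMAD6, SMAD7 and BAMBI and 2 probes each for SMURF1 and SMURF2. Where a gene had 2 probes, the brighter one is called the main probe and the other the second probe.

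The samples were 5 human breast cancer lines (HCC1419, ZR-75-30, SK-BR-3, HCC1954 and MDA-MB-361, the order used for values below), established lines that the study chose for low BMP4 expression of their own and treated with recombinant human BMP4 or with vehicle for 30 min, 1, 3, 6, 12 or 24 h. Triplicate cultures were pooled, so the 30 arrays (5 at each time point, 6 in each line) hold no replicate of the same line and time. BMP4-treated RNA carried the dye Cy5 and vehicle RNA Cy3 on every array. No array had the dyes swapped. A ratio set against 0 therefore includes whatever bias a probe has for one dye, and a difference between time points is free of such bias where it is constant.

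All ratios are given on the log2 scale, BMP4 over vehicle, after loess normalization, and n is the number of lines unless stated. Adjusted p values are from limma with Benjamini-Hochberg adjustment over all probes tested, and a call is an adjusted p under 0.05. With no replicate of a line and time, the p values of tests against 0 rest on the spread between lines within a time point, pooled over the 6 time points. The arrays of a line count as independent there, and the spread at a single time point can be wider or narrower than the pooled one. Comparisons between time points take out the mean of each line (the line as a block). Their p values measure how far the lines differ in their change over time. The p values of comparisons between lines measure the spread between the 6 arrays of a line, each from another time point. RNA came from whole cultures, so fewer cells with a transcript and less transcript per cell cannot be told apart.

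BMP4 is a secreted ligand whose cell surface receptors are serine-threonine kinases of types I and II. Their direct substrates, the receptor-regulated SMADs, carry the signal to the chromatin as complexes with the common partner SMAD4. SMAD6 competes for partners of the BMP SMADs and blocks BMP type I receptors, and SMAD7 blocks type I receptors of both the BMP and the transforming growth factor β branches. BAMBI is a membrane pseudoreceptor that resembles a type I receptor but has no kinase domain, and SMURF1 and SMURF2 are ubiquitin ligases that mark SMADs and, through inhibitory SMADs, receptors for degradation. SMAD6, SMAD7 and BAMBI are known as transcriptional targets of the signal that they restrain.

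The letters that SMAD complexes are known to bind were looked for in the 250 bases before the RefSeq start sites (GRCh38.p14). The windows of SMAD6, SMAD7 and BAMBI, the members with the highest ratios, are shown 5′ to 3′, with the SMAD-binding tetramers GTCT and AGAC and with GGCGCC in capitals.
SMAD6: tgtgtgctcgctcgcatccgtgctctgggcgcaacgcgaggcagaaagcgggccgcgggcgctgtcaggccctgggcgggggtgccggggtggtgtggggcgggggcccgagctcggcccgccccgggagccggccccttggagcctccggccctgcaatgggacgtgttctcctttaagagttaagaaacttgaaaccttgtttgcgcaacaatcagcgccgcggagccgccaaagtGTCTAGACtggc
SMAD7: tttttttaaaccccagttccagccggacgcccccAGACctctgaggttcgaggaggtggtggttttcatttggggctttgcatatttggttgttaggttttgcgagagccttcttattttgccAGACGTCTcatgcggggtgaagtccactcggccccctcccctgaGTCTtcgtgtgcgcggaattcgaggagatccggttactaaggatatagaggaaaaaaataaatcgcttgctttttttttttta
BAMBI: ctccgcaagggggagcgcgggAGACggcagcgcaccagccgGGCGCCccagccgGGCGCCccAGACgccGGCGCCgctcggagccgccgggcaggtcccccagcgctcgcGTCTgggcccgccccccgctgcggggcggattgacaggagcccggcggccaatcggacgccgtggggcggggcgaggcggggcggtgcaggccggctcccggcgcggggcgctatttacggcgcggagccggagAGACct
The SMAD6 window (chr15:66701986-66702235, plus strand) held the palindrome GTCTAGAC, made of both tetramers, 12 bases before the start site. This palindrome was found in 0.182% of the 35116 promoter windows of the same length. The SMAD7 window (chr18:48950966-48951215, minus strand, the first of 3 listed starts) held 4 tetramers, a pair of them joined as AGACGTCT, and the BAMBI window (chr10:28677271-28677520, plus strand) held 4 tetramers and 3 copies of GGCGCC. At least 1 tetramer was found in 77.5% of all windows and GGCGCC in 16.4%. The SMURF1 window held 2 tetramers and the SMURF2 window 1, with 0 copies of GTCTAGAC or GGCGCC in either. Motifs were read on both strands, GTCTAGAC contains both tetramers, and GTCTAGAC and GGCGCC are their own reverse complements. GGAGCC or its reverse complement GGCTCC, held by 30.6% of windows, occurred 3 times in the SMAD6 window, 4 times in that of BAMBI, 1 time in that of SMURF2 and 0 times in that of SMURF1. For SMAD7 it occurred 0 times at the first and second starts and 1 time at the third.

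All 7 probes were well above background in the vehicle channel on all 30 arrays and none was saturated. The epithelial markers KRT8, KRT18 and EPCAM and the receptor ERBB2 were well above background on all arrays, while CDH1 and ESR1 were at background in SK-BR-3 and KRT19 was lower in HCC1954 (log2 vehicle signal 10.64 to 12.43) than in the other lines (16.94 or more). Of the leukocyte and fibroblast markers, PTPRC was well above background on 0 arrays and COL1A2 on 1, whereas CD3E was so on all arrays at 7.19 to 8.51 and COL1A1 in MDA-MB-361 at 9.12 to 9.36, and the part of these in the results was not tested. The lowest correlation between the ratios of any pair of arrays was -0.569, and directions were kept because the methods state the dyes. The arrays lay on 12 slides, each of 1 line, and in SK-BR-3, HCC1954 and MDA-MB-361 the 30 min and 1 h arrays were on another slide than all later ones.

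SMAD6, the inhibitory SMAD that acts mainly on the BMP branch, rose late and stayed high. Its probe (A_23_P65812, chr15:64795864-64860421, hg18, plus strand, across an exon junction) was near 0 at 30 min, with log2 ratios in the 5 lines of -0.04, -0.23, -0.16, -0.00 and 0.15. At 1 h the lines gave -0.03, 0.41, -0.25, -0.02 and 0.34, and at 3 h 0.74, 0.59, 0.60, 0.45 and 1.06. The step between 1 h and 3 h was upward in every line, as it was in 3.81% of probes, and was smallest in ZR-75-30 (0.18). The log2 ratios were 0.88, 0.45, 0.57, 0.46 and 1.55 at 6 h. They were 0.80, 0.25, 0.46, 0.44 and 1.42 after 12 h and 0.36, 0.33, 0.80, 0.35 and 1.36 after 24 h. The 20 arrays from 3 to 24 h did not overlap with the 5 arrays at 30 min, a separation found in 0.0273% of the probes with values on all of these arrays. MDA-MB-361 was the highest line at every time point except 1 h.

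The mean log2 ratio of SMAD6 was -0.06 ± 0.15 (SD, n = 5), 0.09 ± 0.27, 0.69 ± 0.23, 0.78 ± 0.46, 0.67 ± 0.46 and 0.64 ± 0.45, in order from 30 min to 24 h, so the highest mean was a 1.72-fold difference. The late change, the mean of 3, 6, 12 and 24 h minus 30 min with the cell line as a block, was 0.75 (95% interval 0.53 to 0.98, adjusted p = 0.00164). It was 0.74, 0.63, 0.76, 0.43 and 1.20 in the 5 lines, and a late change above 0 in all 5 lines was found in 3.97% of probes. SMAD6 was the only member among the 38 probes called in the late change, which were 0.0927% of all probes, and it ranked 14th among them by size. In the test of any change over time SMAD6 was again the only member called (adjusted p = 0.0122, with 0.0902% of all probes called). Against 0 it was called at the 4 late time points, 3, 6, 12 and 24 h (adjusted p = 0.0418, 0.0203, 0.0418 and 0.0297), when 0.349%, 0.176%, 0.463% and 1.58% of probes were called.

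The call of the late change was lost without MDA-MB-361 (0.64, adjusted p = 0.0601) and with the slide in place of the line as a fixed block (0.76, adjusted p = 0.0617), and that of the change over time was lost without any 1 line except ZR-75-30 (adjusted p 0.0783 to 0.277). The calls against 0 were lost with 1 normalization factor per array (adjusted p 0.101 to 0.724) and without HCC1419, HCC1954 or SK-BR-3 at all 4 time points, and without ZR-75-30 at 3, 12 and 24 h, where the means were 0.60 to 0.86. Within 1 slide, the HCC1419 arrays at 3 h and 6 h were 0.78 and 0.92 above the array at 30 min, and the ZR-75-30 arrays at 3 h and 12 h were 0.82 and 0.48 above it.

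**Figure D1:**
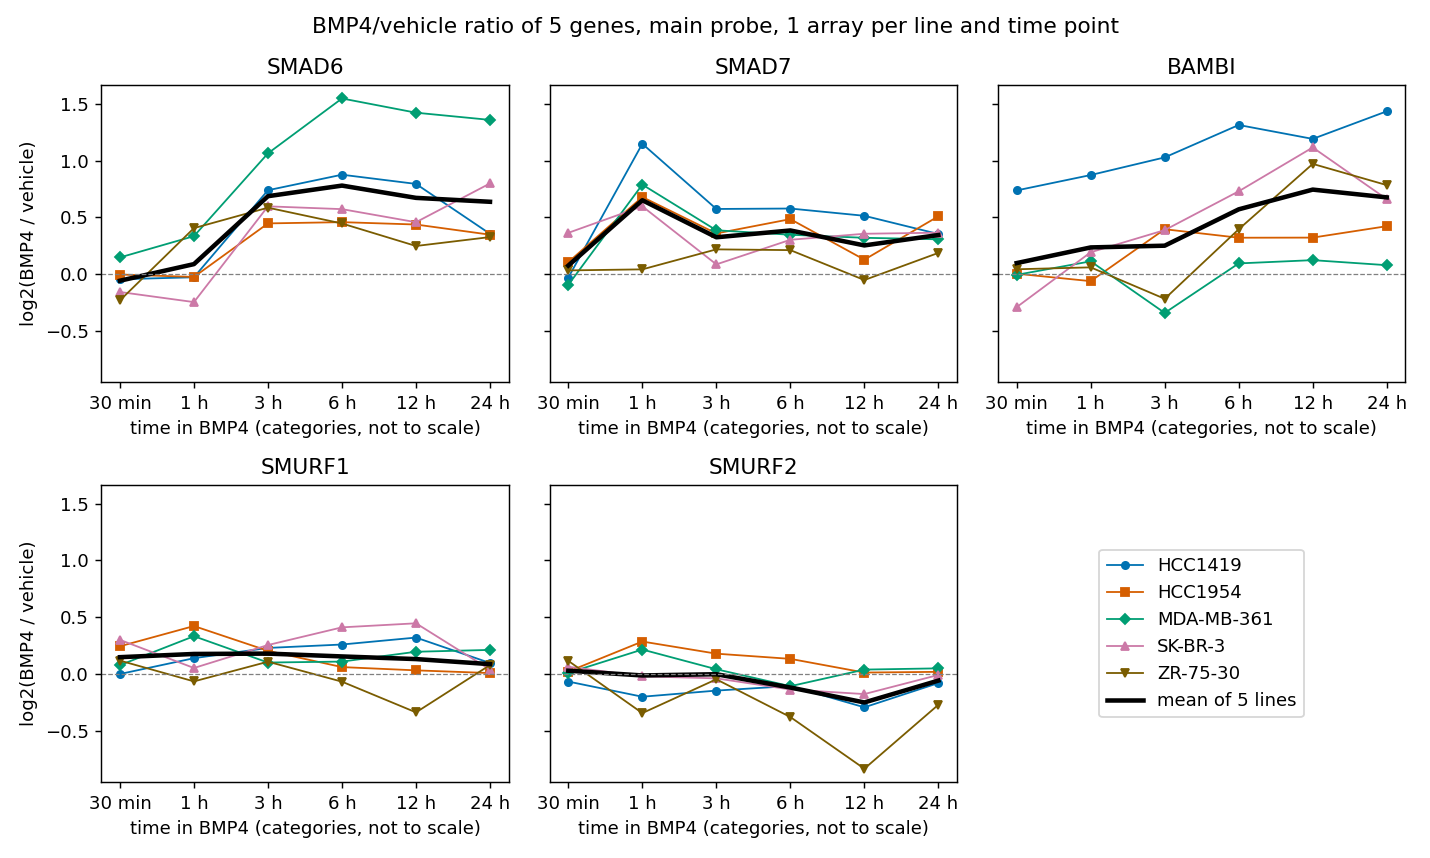
Log2 ratio of BMP4 over vehicle (y axis) of the main probe of each gene at the 6 time points (x axis, categories not to scale), with 1 point per array, colored lines for the 5 cell lines and a black line for their mean. SMAD6 lies above 0 in all lines from 3 h on, SMAD7 has its highest mean at 1 h (0.65), BAMBI is spread widely between lines, and the means of SMURF1 and SMURF2 lie between -0.25 and 0.18.

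SMAD7, the inhibitory SMAD shared by both branches, was high early. Its probe (A_23_P55518, chr18:44700780-44700839, hg18, minus strand) gave log2 ratios in the 5 lines of -0.03, 0.03, 0.36, 0.11 and -0.09 at 30 min. At 1 h they were 1.15, 0.04, 0.60, 0.68 and 0.79. The 1 h array was the highest of the 6 in all lines but ZR-75-30, whose ratios stayed between -0.05 and 0.22. At 3 h the log2 ratios were 0.57, 0.22, 0.09, 0.36 and 0.39, lower than at 1 h in 4 of 5 lines, and from 6 to 24 h they lay between -0.05 and 0.58.

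The mean log2 ratio of SMAD7 was 0.08 ± 0.18 (SD, n = 5), 0.65 ± 0.40, 0.33 ± 0.18, 0.39 ± 0.15, 0.25 ± 0.22 and 0.35 ± 0.12, in order from 30 min to 24 h. It was the only member called at 1 h (adjusted p = 0.00062, with 0.973% of all probes called), a 1.57-fold difference from vehicle. This call held without each line in turn (adjusted p 4.93e-05 to 0.0298) and was lost with 1 normalization factor per array (0.62, adjusted p = 0.133). The SD between lines was larger at 1 h (0.40) than at the other time points (0.12 to 0.22). The pooled spread used in this test is thus narrower than the spread at 1 h. With the line as a block SMAD7 was also called at 3 h, 6 h and 24 h (adjusted p = 0.0464, 0.0222 and 0.0144). The block raised the number of calls among all 41000 probes, at 1 h from 399 to 1036.

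The change of SMAD7 from 30 min to 1 h was 0.58 (95% interval 0.34 to 0.81) and missed the threshold (adjusted p = 0.153) in a comparison that called 1 probe, 0.00244% of all. It was above 0 in 5 of 5 lines, as it was for 2.75% of probes. In the 4 lines whose arrays at 30 min and 1 h shared a slide the change was 1.18 in HCC1419, 0.88 in MDA-MB-361, 0.57 in HCC1954 and 0.23 in SK-BR-3. It was 0.01 in ZR-75-30, where the slides differed. It was called with array weights (0.74, adjusted p = 0.0151). The late change was 0.25 (95% interval 0.07 to 0.44, adjusted p = 0.826), from -0.09 in SK-BR-3 to 0.54 in HCC1419. From 1 h to 24 h the difference was -0.31 for SMAD7 and 0.55 for SMAD6 (adjusted p = 0.517 and 0.2), and 0 of the 7 probes were called (3 with an unadjusted p under 0.05 in limma, SMAD6, SMAD7 and BAMBI), with 0.0634% of all probes called.

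BAMBI, the pseudoreceptor, differed widely between lines. Its probe (A_23_P52207, chr10:29011557-29011616, hg18, plus strand) was already high in HCC1419 at 30 min (0.74), followed by 0.87, 1.03, 1.31, 1.19 and 1.43 at 1, 3, 6, 12 and 24 h. In MDA-MB-361 the log2 ratios at the 6 time points were -0.01, 0.11, -0.34, 0.10, 0.12 and 0.08. This line, the highest for SMAD6, was thus the lowest for BAMBI from 3 h on. SK-BR-3 gave -0.29, 0.19, 0.39, 0.73, 1.12 and 0.66, and ZR-75-30 gave 0.04, 0.06, -0.22, 0.40, 0.97 and 0.78. HCC1954 gave 0.00, -0.06, 0.40, 0.32, 0.32 and 0.42.

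The mean log2 ratio of BAMBI was 0.10 ± 0.38 (SD, n = 5), 0.24 ± 0.37, 0.25 ± 0.55, 0.57 ± 0.47, 0.75 ± 0.49 and 0.68 ± 0.50, in order from 30 min to 24 h. All 5 lines were above 0 at 6, 12 and 24 h, but BAMBI was called at no time point, the lowest adjusted p being 0.0805 at 24 h. With the line as a block, which takes the differences between lines out of the error, it was called at 6 h (adjusted p = 0.00697), 12 h (0.000251) and 24 h (0.000402). That fit called 779 of 41000 probes at 12 h, against 190 without the block. As its p values leave out how far the lines differ in level, they speak for these 5 lines and not for lines in general. The late change was 0.46 (95% interval 0.22 to 0.70, adjusted p = 0.246), with 1.01 in SK-BR-3, 0.50 in HCC1419, 0.44 in ZR-75-30, 0.36 in HCC1954 and -0.01 in MDA-MB-361. With 1 normalization factor per array it was 0.75 (adjusted p = 1), and the highest single ratio was 2.93 in place of 1.43. In SK-BR-3 the 30 min array was scanned on another slide and day than those from 3 h on, and the part of this in its late change was not tested.

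SMURF1, a ubiquitin ligase named for its action on SMADs, had ratios close to 0. The main probe (A_23_P353316, chr7:98463114-98463173, hg18, minus strand) had mean log2 ratios between 0.09 ± 0.08 (SD, n = 5) at 24 h and 0.18 ± 0.07 at 3 h, and the second probe (A_23_P398254, chr7:98466190-98468602, across an exon junction) between -0.19 ± 0.13 at 30 min and -0.11 ± 0.31 at 12 h. The means of both probes had opposite signs at all 6 time points. SMURF2, its close relative, had means between -0.25 ± 0.35 at 12 h and 0.03 ± 0.07 at 30 min on the main probe (A_23_P100754, chr17:59974283-59974342, hg18, minus strand) and between -0.22 ± 0.23 at 24 h and 0.04 ± 0.12 at 3 h on the second probe (A_24_P210888, chr17:59970422-59970481). The lowest log2 ratio of SMURF2 was -0.83 in ZR-75-30 at 12 h, where its second probe gave -0.52 and both SMURF1 probes had their own lowest values (-0.34 and -0.63).

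No probe of either ligase was called at any time point in the tests without a block. With the line as a block 1 of them was, the main SMURF2 probe at 12 h (-0.25, adjusted p = 0.0493), when this fit called 779 of 41000 probes. The other 3 probes had adjusted p of 0.154 or more. Without the block the lowest of the 24 adjusted p values against 0 was 0.245, and 5 of the 24 had an unadjusted p under 0.05 in limma. At 30 min, when 0.0805% of all probes were called, 0 of the 7 probes were among them, and the second SMURF1 probe alone had an unadjusted p under 0.05. The late change was -0.01 for SMURF1 (95% interval -0.17 to 0.15), 0.06 for its second probe (-0.12 to 0.24), -0.14 for SMURF2 (-0.29 to 0.02) and -0.11 for its second probe (-0.31 to 0.10), with adjusted p of 0.965 or more. All 4 intervals leave out a change as large as that of SMAD6.

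**Figure D2:**
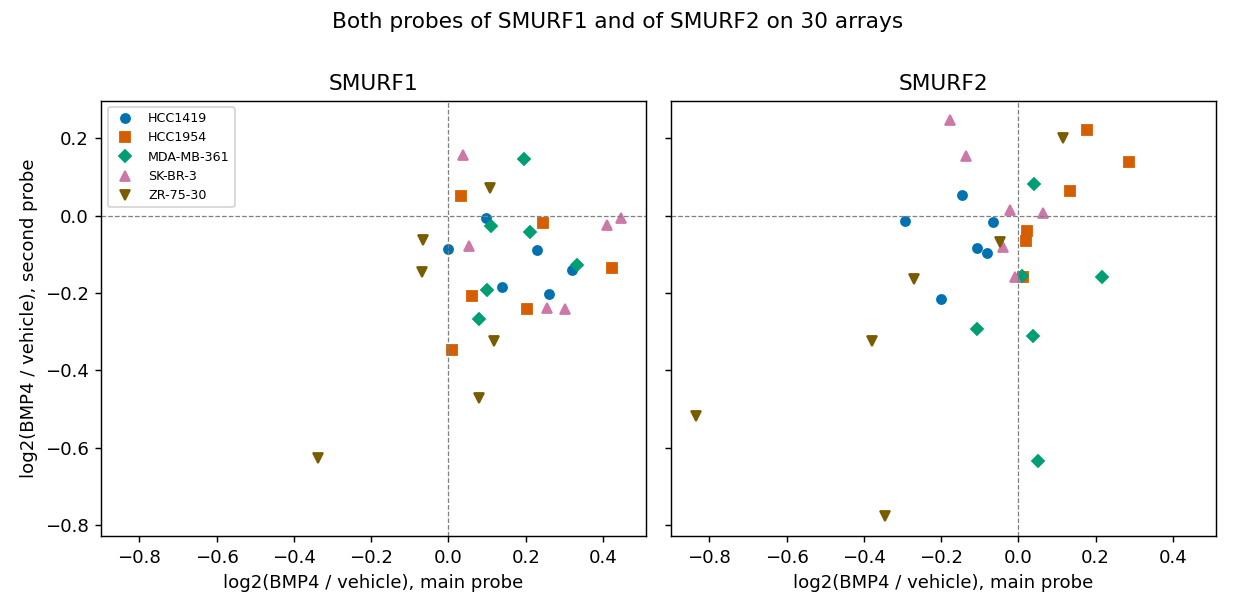
Log2 ratio of BMP4 over vehicle of the main probe (x axis) and the second probe (y axis) of SMURF1 and SMURF2, 1 point per array and 30 arrays per panel, with colors and symbols for the 5 cell lines. Most SMURF1 points lie above 0 on the main probe and below 0 on the second, and the lowest SMURF2 main probe value is that of ZR-75-30 at 12 h (-0.83, with -0.52 on the second probe).

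Over the 30 arrays, with the mean of each line removed, the ratios of both SMURF1 probes correlated with r = 0.164 and those of both SMURF2 probes with r = 0.491, as a description over arrays that share lines and slides. SMAD6 and SMAD7 had r = -0.03, SMAD6 and BAMBI 0.372, and BAMBI and SMURF2 -0.552. The first principal component of the ratios held 34.9% of the variance and correlated with the second SMURF2 probe (r = -0.737), BAMBI (-0.443), SMAD6 (0.424) and SMURF1 (-0.419). With this component as a covariate the late change of SMAD6 was 0.70 (adjusted p = 0.000945) and that of BAMBI 0.50 (adjusted p = 0.0858).

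The ID genes, BMP targets that encode inhibitors of DNA binding, gave a scale for these values after loess normalization. At 1 h ID1, ID2 and ID3 had mean log2 ratios of 1.33, 1.18 and 0.84, beside 0.65 for SMAD7. ID4 was at 0.49 and was not called at this time point (adjusted p = 0.175). The late changes were 1.02 for ID1, 1.33 for ID2, 0.96 for ID3 and 0.95 for ID4, all called, beside 0.75 for SMAD6. The late change of SMAD6 was above that of ID1 in MDA-MB-361 (1.20 and 1.14) and ZR-75-30 (0.63 and 0.60) and below it in the other 3 lines. The late change leaves out the level already reached at 30 min, when the mean log2 ratio was 0.42 for ID1, above 0 in 5 of 5 lines, and -0.06 for SMAD6. Over the 6 time points the mean log2 ratio of SMAD6 was below that of ID1 in MDA-MB-361 (0.98 and 1.31) and in ZR-75-30 (0.30 and 1.04). The size of the SMAD6 values depended on the processing, with a late change of 1.0865 from the software's processed signals and 1.0959 in the series matrix. Its highest ratio was 1.548 after loess normalization and 1.939 in the series matrix. Those of the ID genes were 1.914 and 2.001 (ID1), 2.387 and 2.398 (ID2), 1.562 and 1.614 (ID3), and 1.605 and 1.785 (ID4). Whether SMAD6 stays below the ID genes under other processing was not tested, nor were differences between genes.

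**Figure D3:**
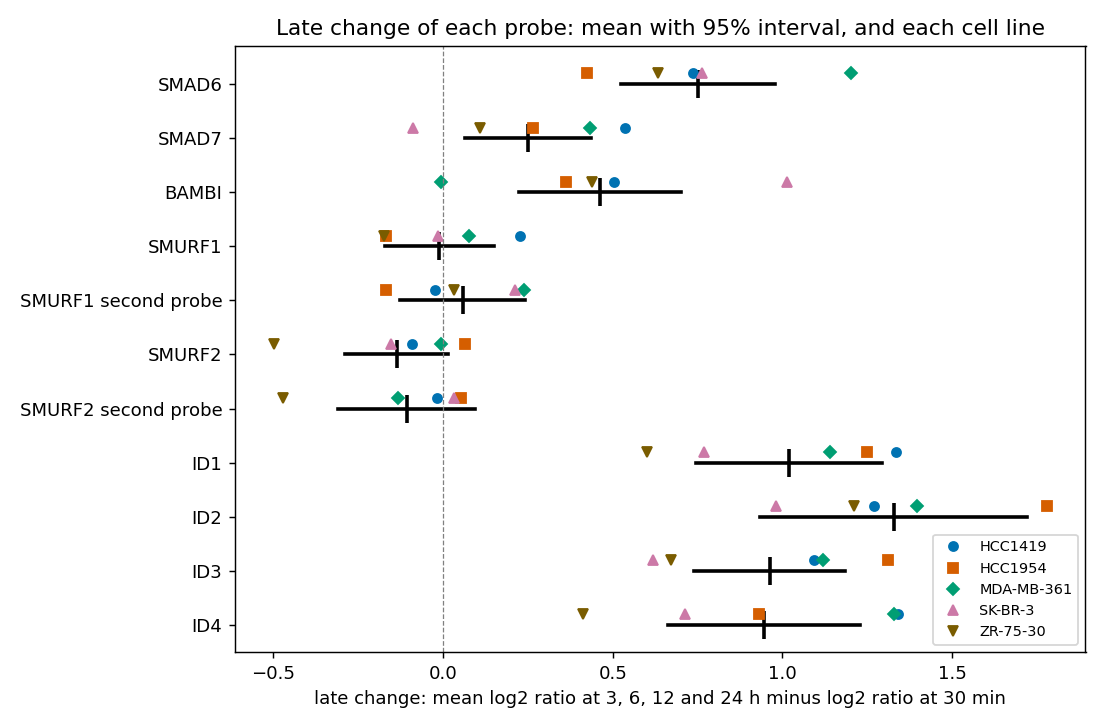
Late change (x axis, log2 scale) of the 7 probes and of ID1 to ID4 (rows), with a tick for the limma mean, a bar for its 95% interval and 1 colored symbol per cell line. SMAD6 (0.75) lies above 0 in every line, BAMBI (0.46) runs from -0.01 in MDA-MB-361 to 1.01 in SK-BR-3, and the intervals of the 4 SMURF probes span 0.

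In a model that also held the time point, the ratio differed between the lines for SMAD6 (adjusted p = 0.00314), SMAD7 (0.0494), BAMBI (0.000573) and the main probe of SMURF2 (0.0113). These were 4 of 7 probes, in a test that called 22.2% of all probes. The mean log2 ratio of SMAD6 over the 6 time points was 0.98 ± 0.60 (SD, n = 6 arrays) in MDA-MB-361, against 0.28 to 0.45 elsewhere, and without MDA-MB-361 the difference was lost (adjusted p = 0.698). For BAMBI it was 1.097 ± 0.27 in HCC1419, 0.47 ± 0.49 in SK-BR-3, 0.34 ± 0.46 in ZR-75-30, 0.23 ± 0.21 in HCC1954 and, lowest, 0.01 ± 0.18 in MDA-MB-361. Without HCC1419 the difference was lost (adjusted p = 0.128). SMAD7 ran from 0.11 ± 0.11 in ZR-75-30 to 0.52 ± 0.38 in HCC1419, and its call held under 5 of 15 alternatives and was lost without any 1 line except SK-BR-3 (adjusted p 0.0635 to 0.383). SMURF2 was lowest in ZR-75-30 (-0.29 ± 0.33) and highest in HCC1954 (0.11 ± 0.11), and its call was lost without MDA-MB-361 (adjusted p = 0.0953). With 1 normalization factor per array 0 of the 7 probes were called, in a fit that called 5 probes on the whole array. Each slide held 1 line, so line and slide cannot be told apart here. Whether the late change itself differed between lines was tested separately, and 0 of the 7 probes were called (1 with an unadjusted p under 0.05 in limma, SMAD7 at 0.0334), with 0.0588% of all probes called.

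Vehicle levels, the log2 Cy3 signals of cells without BMP4, differed between lines for 6 of the 7 probes, in a test that called 73.1% of all probes. BAMBI had the widest span, with 16.41 ± 0.17 (SD, n = 6 arrays) in MDA-MB-361, 16.13 ± 0.33 in ZR-75-30, 15.95 ± 0.17 in HCC1419, 13.55 ± 0.38 in SK-BR-3 and 13.07 ± 0.69 in HCC1954, a 10.15-fold difference between the ends (adjusted p = 3.19e-14). Neighbors in this order overlapped except HCC1419 and SK-BR-3. SMAD6 was 8.38 ± 0.23 in SK-BR-3, 8.36 ± 0.11 in HCC1954, 8.28 ± 0.21 in ZR-75-30, 8.04 ± 0.29 in MDA-MB-361 and 7.58 ± 0.30 in HCC1419 (adjusted p = 7.09e-06), and all neighbors overlapped. SMAD7 ran from 8.47 ± 0.75 in HCC1954 over SK-BR-3, HCC1419 and ZR-75-30 to 8.13 ± 0.23 in MDA-MB-361, with overlap between all neighbors, and was not called (adjusted p = 0.597).

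SMURF2 was highest in HCC1954 (10.58 ± 0.63), then MDA-MB-361 (9.87 ± 0.11), ZR-75-30 (8.94 ± 0.42), HCC1419 (8.07 ± 0.12) and SK-BR-3 (7.73 ± 0.11), and of the neighbors only HCC1954 and MDA-MB-361 overlapped. Its second probe put MDA-MB-361 first (9.59 ± 0.09), without overlap with the next line. SMURF1 was highest in HCC1954 (9.81 ± 0.25), then ZR-75-30 (9.45 ± 0.60), SK-BR-3 (8.60 ± 0.65), MDA-MB-361 (8.05 ± 0.17) and HCC1419 (7.91 ± 0.13), with overlap between all neighbors, whereas its second probe was lowest in MDA-MB-361 (7.04 ± 0.08). Over time 0 of the 7 vehicle levels were called (lowest unadjusted p in limma 0.0502, for BAMBI), with 0.144% of all probes called. Within HCC1954 the vehicle signals moved with the slide, with SMAD7 at 7.75 and 7.76 on the slide of 30 min and 1 h and at 8.64 to 9.49 on that of 3, 6 and 24 h. On the same slides SMURF2 was at 9.73 to 9.97 and at 10.94 to 11.28, and BAMBI at 13.53 to 13.93 and at 12.15 to 12.68. The 12 h array, alone on its slide, had SMAD7 at 8.03, SMURF2 at 10.49 and BAMBI at 13.53. In SK-BR-3 the vehicle signal of SMURF1 was 9.23 and 9.48 on the slide of 30 min and 1 h and 7.84 to 8.67 on that of 3 to 24 h. The part of the slide in these levels was not tested.

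**Figure D4:**
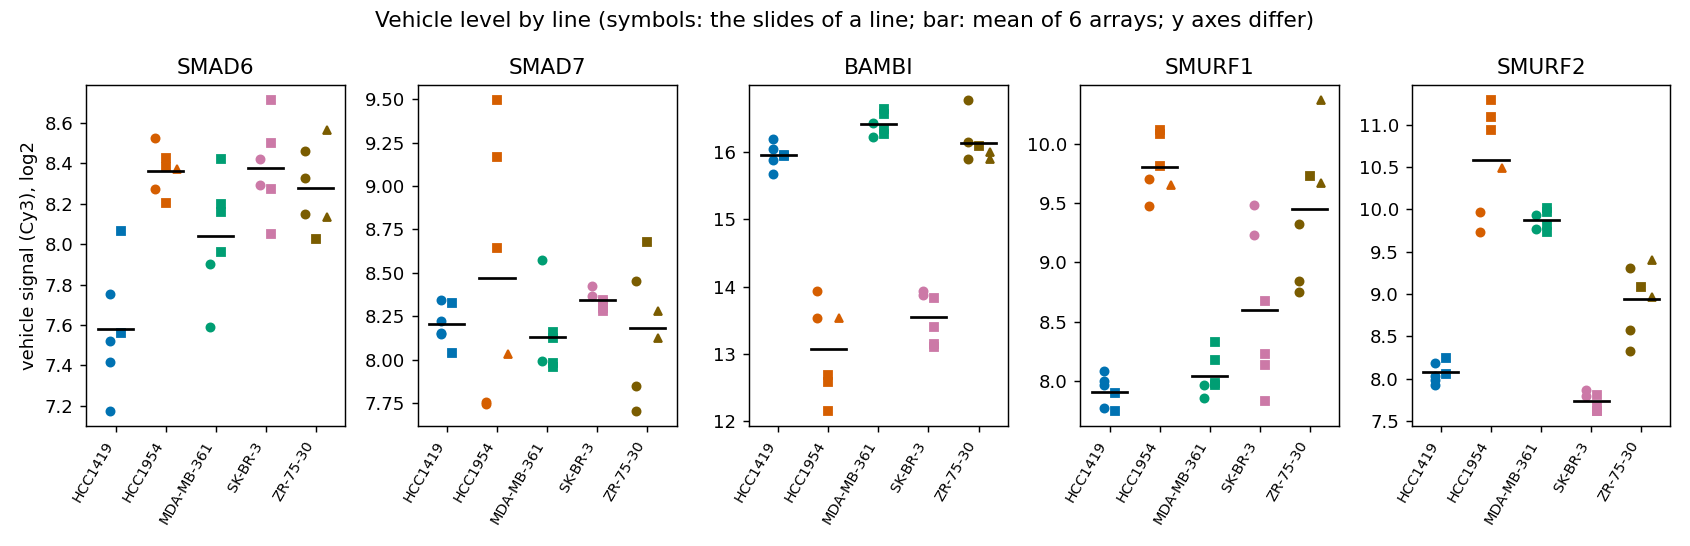
Log2 vehicle signal (y axis, a different range in each panel) of the main probe of each gene in the 5 cell lines (x axis), with 1 point per array, a bar for the mean of 6 arrays and symbols for the slides within a line. BAMBI is high in HCC1419, ZR-75-30 and MDA-MB-361 (means 15.95 to 16.41) and low in SK-BR-3 and HCC1954 (13.55 and 13.07), and in HCC1954 the SMAD7, BAMBI and SMURF2 points of the slide of 3, 6 and 24 h lie apart from those of the other 2 slides.

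Counting a ratio of 2-fold or more on an array as an event, as the study did, SMAD6 had 4 events, all in MDA-MB-361 from 3 h on. BAMBI had 5, of which 4 were in HCC1419 from 3 h on and 1 in SK-BR-3 at 12 h, SMAD7 had 1 in HCC1419 at 1 h, and the SMURF genes had 0. All were increases. SMAD6 and BAMBI passed a filter of 2-fold on at least 4 or 3-fold on at least 3 arrays, which 0.917% of probes passed. In the deposited series matrix 5.9% of probes passed, SMAD6 had 8 events and passed, BAMBI had 1 and did not, and there was 1 decrease for SMURF2 and 3 for its second probe. At least 1 event was found for 7.8% of all probes after loess normalization and for 41.7% in the series matrix.

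Of 25 other genes taken here as negative regulators of the SMAD pathways, a list that included RNF111, ZNF423 and PML, 0 were called in the late change (5 with an unadjusted p under 0.05 in limma). This test called 0.0927% of all probes. The role of each listed gene in these lines was not tested. Their median late change was -0.01 (range -0.22 to 0.49), beside 0.01 over all probes. SKIL, a corepressor that binds SMADs, was called at 3 h and 24 h (0.46 at 24 h, adjusted p = 0.0408) and had the highest late change of the list (0.49, SE 0.12, adjusted p = 0.193), above 0 in 5 of 5 lines. Of 14 receptors and SMADs that carry the signal, 0 were called in the late change (4 with an unadjusted p under 0.05 in limma), beside the same 0.0927% of all probes. Their median late change was -0.02 (range -0.24 to 0.51). The highest was that of SMAD9, a receptor-regulated SMAD of the BMP branch named here after its values were seen (0.51, SE 0.16, adjusted p = 0.664). It was above 0 in 5 of 5 lines, and the probe was well above background in both channels on 22 arrays. SMAD1, a close relative of SMAD9 that was also named after its values were seen, was called at 3 h and 24 h (0.25 at 24 h, adjusted p = 0.00758). At 3 h and 24 h, the times of the SKIL and SMAD1 calls, 0.349% and 1.58% of all probes were called.

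The genes whose ratios over the 30 arrays were most like those of SMAD6, with the mean of each line removed, were BMF (r = 0.844), SAMD11 (0.827), GPER1 (0.806, GPR30 on the array), UCK1 (0.797) and TYRO3 (0.781). For SMAD7 they were SNF1LK (0.819, now SIK1), OVOL1 (0.679), KMT5B (0.642, SUV420H1 on the array), BCOR (0.633) and CCN1 (0.609, CYR61 on the array). BAMBI was most like CXorf38 (0.874), RETREG1 (0.84, FAM134B on the array), RAB1A (0.839), RAB9BP1 (0.833, RAB9P1 on the array) and RAB5IF (0.833, C20orf24 on the array). SMURF1 was most like F3 (0.785), ANKLE2 (0.773, KIAA0692 on the array), CLMN (0.771), ZNF547 (0.763) and CORO1C (0.761), and SMURF2 like ITGB1 (0.861), MCFD2 (0.84), PFN2 (0.824), SLC39A6 (0.817) and TMEM248 (0.812, C7orf42 on the array). These are the highest of 18571 probes and describe likeness over arrays that share lines and slides.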

How the data were processed

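Two-color scanner files of 30 arrays were used. The deposited intensity values were the mean and background signals of Cy5 and Cy3 that the authors extracted with Feature Extraction (9.5.1.1 per the file headers, a version that differs from the one in the study's methods), with probe positions on hg18. The deposited log2 ratios of the series matrix served as an alternative. All its column medians were 0, and its values followed the software's own processed ratios.

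Signals were background corrected (normexp, offset 50) and loess normalized in limma 3.58.1 (R 4.3.3). Each array had 45015 spots, of which 1639 control spots had weight 0 and were left out, outlier spots were dropped, and spots of a probe were averaged. Vehicle levels were log2 Cy3 signals after Aquantile normalization. Fits were on 41000 probes. Tests against 0 had no block, and the other time comparisons had the cell line as a block. The same replicate number marks the same cell line, so arrays were paired by line (mean correlation of deviations 0.233 within and -0.088 between lines). On simulated data of 5000 probes, 200 of them changed, the late-change fit recovered 94% of changes of 0.5 (log2) and the test of a late change differing between lines 17%. Errors were drawn independently, without slides, and the changed share was larger than the share of probes called in the real data. The simulated shares therefore do not give the power in the real data. For arrays, their number limits the precision.

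Named genes were all member probes, ID1 to ID4, the 5 genes most like each member, and other genes taken as negative regulators that were called in the late change or at 2 or more time points. Members and lists were chosen with earlier results of these data known. Alternatives covered normalization, background, filters, flags, weights, variance trend, blocks, slide and each line left out. The slide as a fixed block and component 1 as a covariate were added after seeing the data. 1 marker gene is not reported here.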

Additional observations from a re-analysis of the deposited data

Results flagged for a closer look

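In 4 of 77 groups of arrays examined, 1 array stood apart from the others by Dixon's criterion, which chance meets in about 1 of 20 groups. These were the BAMBI ratio of HCC1419 at 1 h (0.87, next line 0.19), the second SMURF2 probe in MDA-MB-361 at 24 h (-0.63, next line -0.16), the SMAD7 vehicle level of MDA-MB-361 at 1 h (8.58, next array 8.16) and the BAMBI vehicle level of ZR-75-30 at 30 min (16.77, next array 16.15).

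The ratio over all time points differed between cell lines in the limma test of the line term for SMAD6 (adjusted p = 0.00314), SMAD7 (adjusted p = 0.0494), BAMBI (adjusted p = 0.000573) and SMURF2 (adjusted p = 0.0113), with 22.2% of all probes called. Line and slide cannot be told apart in this test, and with 1 normalization factor per array it called 0 members and 5 probes on the whole array. The limma test of a late change differing between lines called none of these genes (adjusted p = 0.8618, 0.8019, 0.9378 and 0.9324, in the same order).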

How the results depend on the processing

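The late change of SMAD6 was above 0 under all 17 alternatives (0.64 to 1.096) and was called under 13. It lost its call with no replicate block (0.75, adjusted p = 0.2995), with the slide as random block (0.71, adjusted p = 0.0886), with the slide as fixed block (0.76, adjusted p = 0.0617) and without MDA-MB-361 (0.64, adjusted p = 0.0601), and without each line in turn it was 0.64 to 0.83. The late changes of SMAD7 (0.18 to 0.36) and BAMBI (0.33 to 0.75) were called under none of their 17. With 1 factor per array the number of members called was 0 at 1, 3, 6, 12 and 24 h, 0 over time and 0 between lines. With the replicate block it was 2 at 3 h and 3 at 6, 12 and 24 h. With array weights it was 2 at 3 h and 6 h, 3 at 24 h, 1 from 30 min to 1 h and 2 over time, and with component 1 as a covariate 2 at 12 h, 3 at 24 h and 1 from 30 min to 1 h. Calls among all probes moved as well. With array weights they went from 143 to 1144 at 3 h, from 72 to 255 at 6 h and from 37 to 64 over time. With component 1 they went from 647 to 2031 at 24 h, and with the replicate block from 190 to 779 at 12 h. With 1 factor per array they fell to 27, 8, 5, 6 and 111 at 1, 3, 6, 12 and 24 h, 0 over time and 5 between lines. With the slide as random block the number of members called was 2 at 12 h and 24 h, and 0 in the late change and over time, as with the slide as fixed block and with no replicate block. At 24 h it was 2 without background subtraction, 3 in the series matrix and 3 with the processed signals, which gave 2 at 6 h. Without each line in turn it was 0 to 1 at 3 h and 24 h, 0 to 2 at 6 h and 12 h, 0 to 1 in the late change and over time, and 1 to 4 between lines. Signs turned for values near 0, for BAMBI at 30 min in the series matrix (-0.0028) and without replicate 1, HCC1419 (-0.0617, highest without a line 0.1953), for SMAD6 at 30 min with component 1 (0.0248), and for the late change of SMURF1 with 1 factor per array (0.0273), array weights (0.029) or component 1 (0.0262), in the series matrix (0.0108), with processed signals (0.0015) and without HCC1954 or ZR-75-30 (without each line in turn -0.0692 to 0.0306). The cause was not tested.

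Over all probes the number called ranged from 0 to 1378 at 30 min, 27 to 1036 at 1 h, 8 to 1144 at 3 h, 5 to 255 at 6 h, 6 to 779 at 12 h, 111 to 2031 at 24 h, 3 to 65 in the late change, 0 to 9 from 30 min to 1 h, 0 to 70 from 1 h to 24 h, 0 to 64 over time, 5 to 14740 between lines, and 1 to 98 for a late change differing between lines. For vehicle levels over time it was 0 to 48 under the alternatives, all below the 59 probes reported. The block could not be fitted in the tests between lines, and the scan day was not run apart from the slide.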

Other observations

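A probe without a gene name in the scanner files (A_24_P836315) that the study's annotation assigned to SMURF1 was well above background on 23 arrays in the vehicle channel and on 18 in the BMP4 channel. It had 1 increase of 2-fold or more after loess normalization, and 6 increases and 3 decreases in the series matrix. Its late change was 0.10 (limma, adjusted p = 0.984), and its ratios correlated with r = -0.426 with the main SMURF1 probe and 0.126 with the second, as a description over 30 arrays.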
